A study of Mus musculus with 7 samples.

Results

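Egr1, Egr2, Egr3 and Egr4 encode zinc finger transcription factors, and Nab1 and Nab2 encode the corepressors that bind Egr proteins. Binding sites of Fos in mouse hippocampus were collected around these 6 genes. Every peak with a base within 50 kb of the RefSeq span of 1 of the 6 genes (assembly GRCm38) was taken, in each of 6 peak lists. This gave 117 of the 111142 deposited peaks. Peaks that shared at least 1 bp were merged into regions, which left 69 of the 68873 regions of all lists, and 67 of the 69 held a kainic acid peak. Around these genes the peaks were picked by position alone.

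Chromatin was immunoprecipitated with an antibody against Fos and sequenced (ChIP-seq). All mice were wild-type C57BL/6J animals of 2 months. The saline group, injected with phosphate buffered saline, has 3 libraries. The kainic acid group has 3 libraries from mice given this glutamate receptor agonist in 2 intraperitoneal injections of 10 mg/kg, 30 min apart. These mice reached seizures of level 4 and were killed 1 hour after the first injection. A single input library, labelled saline, holds chromatin without immunoprecipitation, and no peak list of it was used here. The labels do not say whether libraries come from separate animals, so p-values measure the spread between libraries, which may in part be technical. Whole hippocampus holds many cell types, and strong binding in few cells cannot be told apart from weak binding in many.

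Egr genes are immediate early genes: neurons transcribe them within minutes of strong activity, without new protein synthesis. Signals from calcium and MAP kinases reach their promoters through serum response factor with its Elk partners, which bind CArG boxes, and through CREB, which binds cyclic AMP response elements (CRE). Egr proteins bind GC-rich sites. Nab1 and Nab2 dock on an inhibitory domain of Egr1, Egr2 and Egr3 and repress their target genes, and Nab genes are themselves known Egr targets, which closes a feedback loop. Fos is itself an immediate early protein, and with a Jun partner it forms AP-1.

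Reference sequence before the transcription start shows which of these sites the promoters carry. The RefSeq promoter table (GRCm38.p6) held 8 entries for 4 of the genes, namely 5 starts of Egr2 and 1 each of Egr4, Nab1 and Nab2. Egr1 and Egr3 had no entry. Both strands of the 250 bases before each start were searched for AP-1 sites (TGANTCA), full CREs (TGACGTCA), CRE cores (TGACG, which lies within the full CRE), the Egr sites GCGTGGGCG and GCGGGGGCG, and the CArG box by name. Of all 32851 promoter entries, these were in 6.75%, 1.55%, 17.8%, 0.536%, 2.57% and 1.47%. The sequences below are printed 5′ to 3′ on the strand of the gene because no kainic acid peak overlapped them. Capitals mark the matches, except for Nab2, where they mark the 40 bases under a peak of saline replicate 2.
Egr4, chr6:85513590-85513839, minus strand, 2 CRE cores: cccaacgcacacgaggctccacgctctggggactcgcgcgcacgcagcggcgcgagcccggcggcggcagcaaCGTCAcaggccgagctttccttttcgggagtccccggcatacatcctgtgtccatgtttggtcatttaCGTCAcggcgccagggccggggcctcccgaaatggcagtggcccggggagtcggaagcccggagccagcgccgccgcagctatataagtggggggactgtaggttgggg
Egr2, chr10:67537797-67537818, plus strand, a CArG box and a CRE core: CCATATATGGgcagcgaCGTCA
Nab1, chr1:52500576-52500594, minus strand, an Egr site read on the other strand: gcggcCGCCCACGCcggga
Nab1, chr1:52500544-52500562, minus strand, an Egr site: gccgcGCGTGGGCGggagc
Nab1, chr1:52500473-52500491, minus strand, an Egr site: gcgggGCGGGGGCGgcgga
Nab2, chr10:127666704-127666953, minus strand, no match: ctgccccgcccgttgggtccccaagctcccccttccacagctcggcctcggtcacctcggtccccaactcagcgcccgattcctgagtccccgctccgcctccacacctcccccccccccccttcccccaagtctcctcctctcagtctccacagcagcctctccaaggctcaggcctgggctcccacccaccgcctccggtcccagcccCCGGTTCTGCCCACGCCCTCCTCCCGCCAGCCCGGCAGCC

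None of the 8 stretches held an AP-1 site or a full CRE, which says only that these letters are not in these windows. Egr2 has another CArG box 72 to 63 bases before its start at 67537566, and another CRE core 111 to 107 bases before the start at 67537869. The printed Egr2 stretch lies 72 to 51 bases before the start at 67537869, and the entries for the starts at 67537870 and 67537930 hold it too. The 3 Egr sites of Nab1 lie 141 to 133, 109 to 101 and 38 to 30 bases before its start, and a CRE core lies 123 to 119 bases before it. A match is a description of the letters and no evidence of binding.

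Kainic acid lists held most of the peaks around the 6 genes, and the libraries differed widely in how many. Within 50 kb of the 6 genes together, kainic acid replicates 1, 2 and 3 had 13, 62 and 34 peaks. Saline replicate 2 had 8, and saline replicates 1 and 3 had 0. The groups did not overlap. On the scale of log10(number of peaks + 1), the kainic acid lists averaged 1.5 ± 0.329 (SD, n = 3), the saline lists averaged 0.318 ± 0.551 (SD, n = 3), and the means differed by 1.18. The p-value of a permutation test (exact, two-sided, 20 assignments) was 0.1. With 3 libraries on each side it cannot go lower, so no comparison of numbers here can pass 0.05. After Benjamini-Hochberg adjustment over 7 comparisons (each gene and all 6 together) this exact permutation p was 0.14.

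Over the 6 genes together, the order of these numbers followed the lengths of the lists. The shares of the lists were not equal, and single genes did not all keep that order. What sets the numbers was not tested. Whole lists held 15009, 63197 and 29650 peaks in kainic acid replicates 1, 2 and 3, and 7, 3277 and 2 in saline replicates 1, 2 and 3. The 6 windows held 0.0866%, 0.0981% and 0.115% of the kainic acid lists and 0.244% of the saline replicate 2 list. No read totals come with the lists. Reads over each summit, inferred from the deposited fold and p-value, ran from 16 to 28, 11 to 88 and 18 to 60 for the peaks of these genes in kainic acid replicates 1, 2 and 3, with medians of 21, 20.5 and 23. In saline replicate 2 they ran from 14 to 25. Most of these peaks therefore rest on few reads, and a region missing from a list may have fallen under that list's cutoff.

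**Figure D1:**
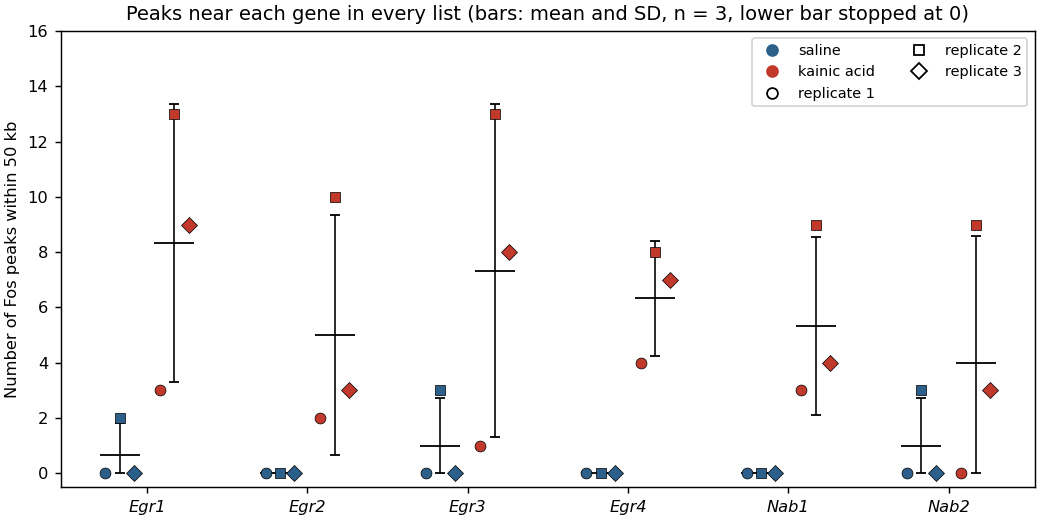
Number of Fos peaks within 50 kb of each gene (vertical axis) in every list. Blue points are saline, red points are kainic acid, marker shapes are replicates, and bars give the mean and SD of 3 lists; only replicate 2 has saline points above 0, at Egr1 (2), Egr3 (3) and Nab2 (3).

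Gene by gene, 4 of the 6 had more peaks in every kainic acid list than in any saline list, against 33.5% of the 21883 protein-coding genes. Egr1 had 3, 13 and 9 peaks in kainic acid replicates 1, 2 and 3 and 2 in saline replicate 2. Egr2 had 2, 10 and 3 with kainic acid and 0 in each saline list. Egr4 had 4, 8 and 7, and Nab1 had 3, 9 and 4, again with 0 in each saline list. At the remaining pair of genes the groups overlapped. Egr3 had 1, 13 and 8 peaks with kainic acid and 3 in saline replicate 2, so that kainic acid replicate 1 lay below that saline list. Nab2 had 0, 9 and 3 with kainic acid and 3 in saline replicate 2. The exact permutation p was 0.1 for Egr1, Egr2, Egr4 and Nab1 (0.14 adjusted), 0.2 for Egr3 (0.233 adjusted) and 0.7 for Nab2 (0.7 adjusted). With every kainic acid list cut to its 15009 peaks of highest fold, the Nab2 difference turned from 0.333 to -0.10 on the log10 scale. No other gene changed direction under that cut.

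All 6 genes had a peak within 50 kb in kainic acid replicates 2 and 3, where 77.4% and 63.3% of protein-coding genes had one. In kainic acid replicate 1 it was 5 of 6, against 46.3%, with Nab2 as the exception. In saline replicate 2 it was 3 of 6, against 30.2%. A region with a peak in at least 2 kainic acid lists lay within 50 kb of all 6 genes. Of protein-coding genes 62.7% had one, and of the 16468 no longer than Nab1, the longest of the 6, 57.1%. A region in all 3 kainic acid lists lay near 5 of 6 genes, all but Nab2, against 42.5% of protein-coding genes.

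Among the 6 genes, Fos regions were densest around Egr1, Egr3 and Egr4. Counting regions in at least 2 kainic acid lists, Egr1 and Egr3 had 7 each, Egr4 had 6, Nab1 had 5, Egr2 had 3 and Nab2 had 2, which makes 30. The median over the 6 genes was 5.5 regions, against 1 over all protein-coding genes (quartiles 0 and 3). Per 100 kb of window, Egr1 had 6.75 regions, Egr3 had 6.65, Egr4 had 5.86, Nab1 had 3.45, Egr2 had 2.78 and Nab2 had 1.89. The median over all protein-coding genes was 0.871 per 100 kb (quartiles 0 and 1.93). Egr1, Egr3 and Egr4 exceeded 98.9%, 98.8% and 98.1% of protein-coding genes in density, and Nab1, Egr2 and Nab2 exceeded 89.5%, 84.3% and 73.6%. The numbers rest on replicates 2 and 3 of the kainic acid group. Without either of these, Egr1 had 2 regions, Egr3 had 1, Egr4 had 4, Egr2 had 2 and Nab2 had 0, so that Egr3 had fewer than Egr2. Nab1 had 1 without replicate 2 and 3 without replicate 3 or replicate 1. The shares above describe the genes' place among all genes and are no test, because the genes were chosen with earlier results known.

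**Figure D2:**
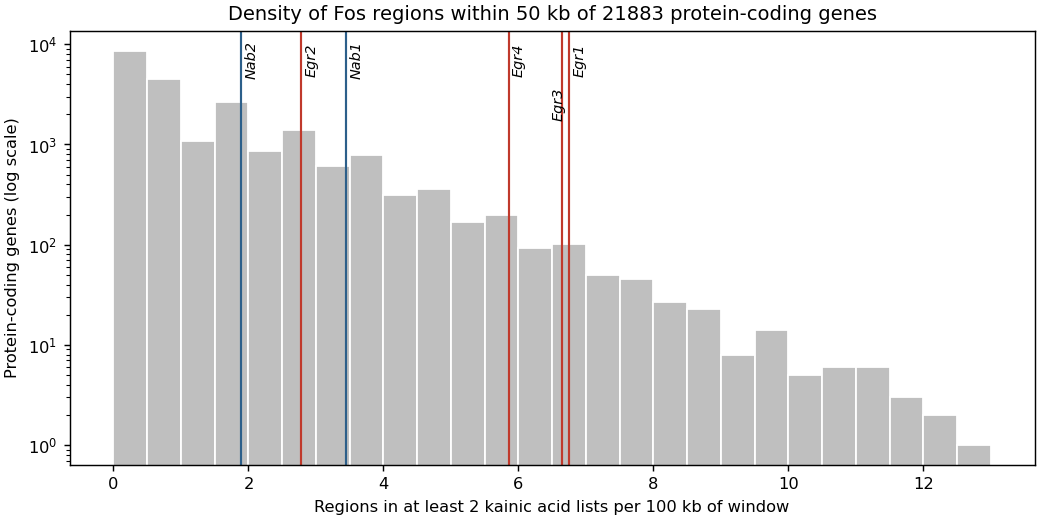
Number of protein-coding genes (vertical log axis) by the density of Fos regions in at least 2 kainic acid lists within 50 kb (horizontal axis, regions per 100 kb of window). Red lines mark Egr genes and blue lines Nab genes; Egr1, Egr3 and Egr4 lie far to the right, at 6.75, 6.65 and 5.86, and Nab2 at 1.89 lies just under the upper quartile of 1.93.

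Support across replicates was uneven. Of the 30 regions, 10 were in all 3 kainic acid lists, whereas 44.4% of such regions over the whole genome were. Kainic acid replicate 1 was the missing list at 18 of the other 20 regions and replicate 3 at 2 of them, and replicate 2 had a peak at all 30. A further 37 regions were in a single kainic acid list, 32 of them in replicate 2. The count of 30 therefore depends on which lists are present. Dropping kainic acid replicate 2 left 10 regions, dropping replicate 3 left 12 and dropping replicate 1 left 28. In all, 26 of the 30 had no saline peak, against 98.0% of regions over the genome, and the other 4 each had a peak of saline replicate 2 alone.

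Position varied as much as number. Of the 30 regions, 5 touched the span of 1 of the 6 genes, 10 lay outside it within 10 kb and 15 lay 10 to 50 kb away. For 17 of the 30, the Egr or Nab gene was the nearest protein-coding gene. This was so for 2 of 7 regions at Egr1, 3 of 3 at Egr2, 3 of 7 at Egr3, 4 of 6 at Egr4, 5 of 5 at Nab1 and 0 of 2 at Nab2. The remainder were nearer to, or inside, neighbours such as Reep2, Bin3 and Fbxo41, and the lists do not say which gene a region serves.

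**Figure D3:**
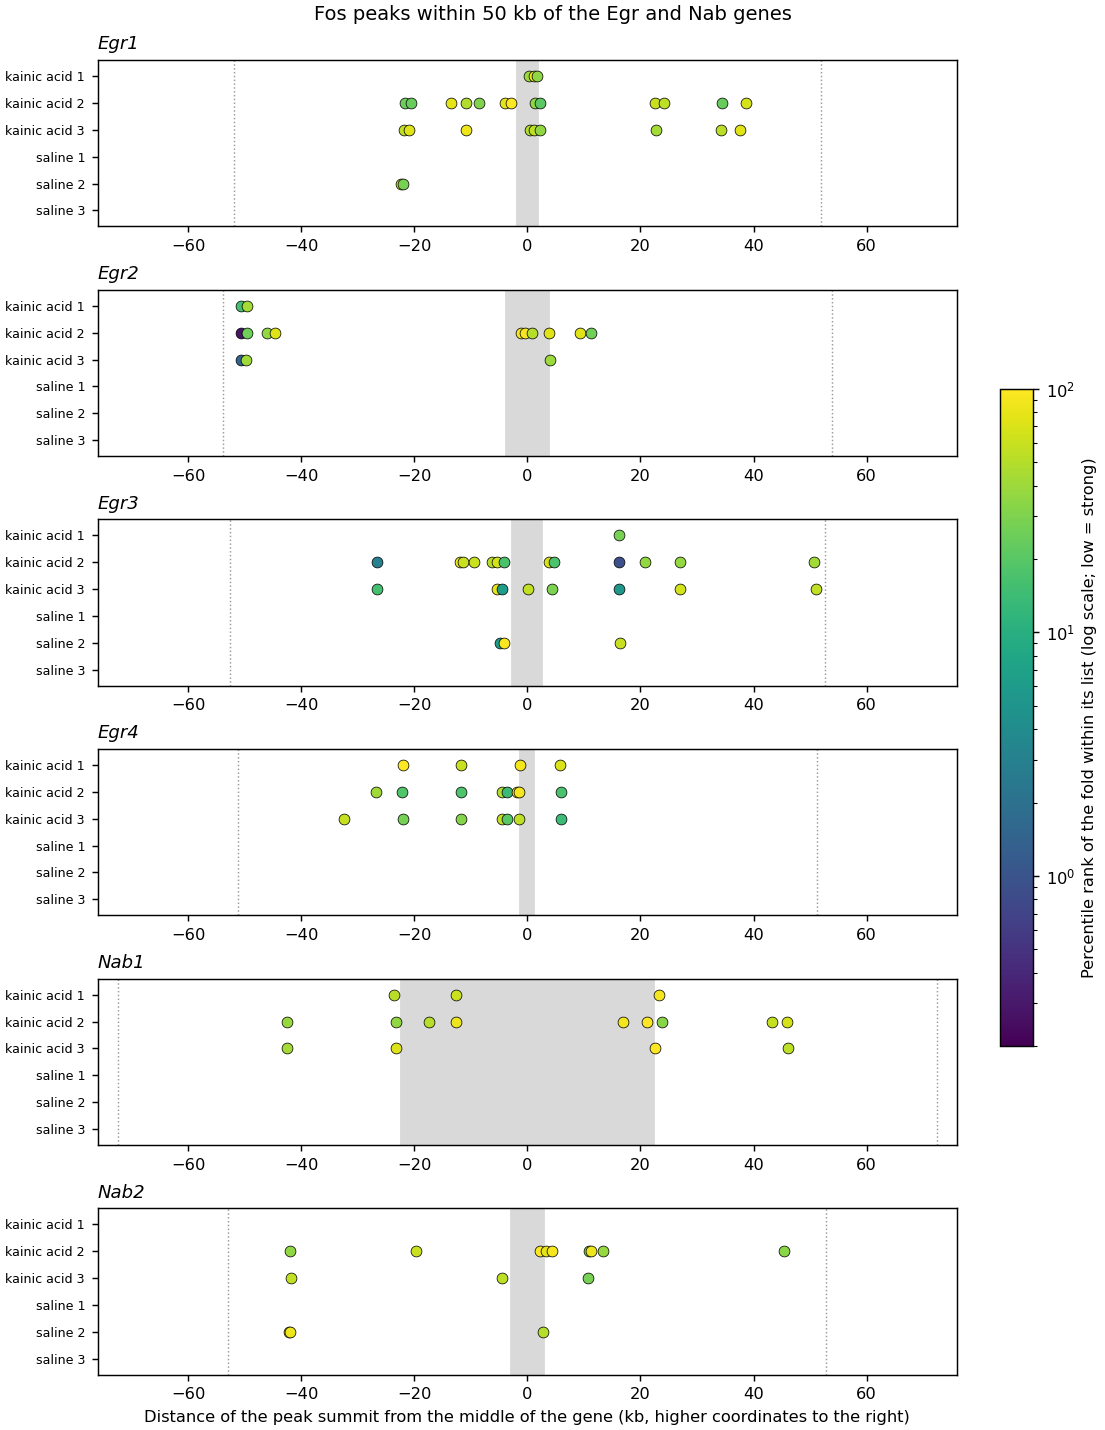
Fos peaks within 50 kb of each gene, one panel per gene and one row per list. The horizontal axis is the distance of the summit from the middle of the gene in kb, the grey band is the gene, dotted lines are the limits of the window and colour gives the percentile rank of the fold on a log scale (dark is strong); the darkest points lie about 50 kb to the left of Egr2 and on both sides of Egr3.

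Peak strength is given by the deposited fold, the ratio of the summit to the local background of its own library. Folds are not scaled between libraries, so each is set beside its rank in its list and its percentile rank, 100 times the rank divided by the number of peaks, where low values are strong. Egr2, known for its role in hindbrain patterning and myelination, had the strongest region. It lay between genes at chromosome 10, 67487210 to 67488200, 46.3 kb upstream of the Egr2 span, with Egr2 as the nearest protein-coding gene. Its fold was 6.02 in kainic acid replicate 1 (rank 2337 of 15009), 20.9 in replicate 2 (rank 173 of 63197) and 10.4 in replicate 3 (rank 441 of 29650). Percentile ranks were 15.6, 0.274 and 1.49, a mean of 5.78 ± 8.5 (SD, n = 3), and the summits rested on 28, 88 and 60 inferred reads. All 3 kainic acid lists placed it in the upper part of their ranking, replicate 1 least so, and no saline list had a peak there. The summits of the 3 lists fell at 67487764, 67487687 and 67487735.

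A second region stood next to it at 67488347 to 67488896, also in all 3 kainic acid lists, with folds of 4.56, 5.79 and 4.29 and percentile ranks of 43.1, 25.5 and 41.0. The distal pair lies close to the 50 kb limit and would be lost with a shorter reach. Within 10 kb, a single Egr2 region remained. It covered the 3′ end of the gene at 67541975 to 67542797, had folds of 3.70 and 4.36 in kainic acid replicates 2 and 3 and no peak in replicate 1, and its mean percentile rank was 70.7. Near the starts of Egr2, only replicate 2 had peaks. Its peak at 67537111 to 67537317 ended before the printed CArG stretch, at the 92.3 percentile rank, and its peak at 67537974 to 67538182 began after it, at 93.2. Both are among the weakest peaks of that list.

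Egr3, which acts downstream of activity and growth factor signals in neurons and muscle spindles, was surrounded by 7 regions, of which 1 was found in every kainic acid list. It lay between Egr3 and Bin3 at chromosome 14, 70095811 to 70096681, 13.2 kb from Egr3 and 3408 bp from Bin3. Its fold was 5.19, 16.4 and 7.66 in kainic acid replicates 1, 2 and 3, with percentile ranks of 28.1, 0.904 and 5.55, a mean of 11.5 ± 14.6 (SD, n = 3). Inferred summit reads were 24, 69 and 42. Saline replicate 2 had a peak in it with a fold of 3.97 on 17 reads, at the 59.4 percentile rank of its list. Replicate 1 ranked the region lowest of the kainic acid lists. Ranks from lists of such different lengths cannot show whether the groups differ here.

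Among the other Egr3 regions, 3 more ranked in the upper 30% of both lists that held them. The first, at 70053166 to 70053907 inside Pebp4 and 23.4 kb from Egr3, had folds of 11.9 and 5.76 in kainic acid replicates 2 and 3 (percentile ranks 2.93 and 15.8). The next, at 70074844 to 70076439, ended 878 bp before the low-coordinate end of Egr3. There the folds were 6.79 and 7.47 in the same lists (percentile ranks 16.8 and 6.22). Saline replicate 2 had 2 peaks in it, the stronger with a fold of 5.49 on 20 reads, rank 201 of 3277. That is the best rank of any saline peak near the 6 genes. The last, at 70083913 to 70085069, began 1300 bp past the high-coordinate end, with folds of 6.75 and 4.77. Replicate 1 of the kainic acid group had no peak at any of the 3.

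**Figure D4:**
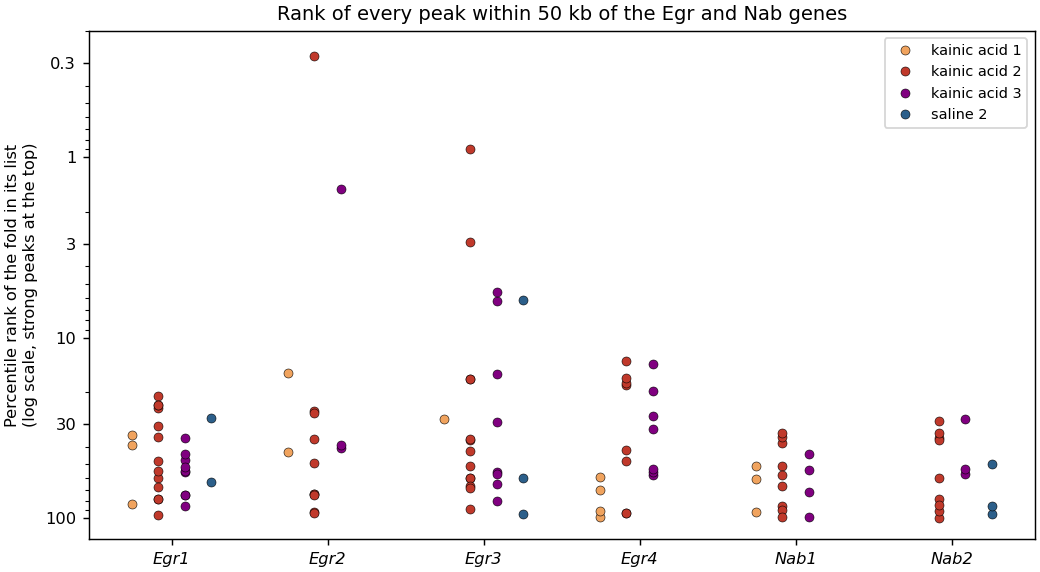
Percentile rank of the fold (vertical log axis, strong peaks at the top) of every peak within 50 kb of each gene, by list. Orange, red and purple points are kainic acid replicates 1, 2 and 3 and blue points are saline replicate 2; only Egr2 and Egr3 have kainic acid peaks above the 10 percentile rank, with 0.274 and 0.904 as the best.

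Egr1, also called Zif268 and widely used as a marker of neuronal activity, carried its best supported regions on and just past the gene. Egr1 spans chromosome 18, 34861207 to 34864956. A region at 34863253 to 34864623 lay inside the gene and was in all 3 kainic acid lists, with a best fold of 4.73, 5.09 and 4.07 in replicates 1, 2 and 3 and percentile ranks of 39.4, 35.3 and 47.7. A second, at 34864641 to 34865972, crossed the high-coordinate end. Its folds were 4.87, 6.21 and 4.48, its percentile ranks 34.7, 20.9 and 35.7 (mean 30.4 ± 8.29, SD, n = 3) and its inferred summit reads 21, 31 and 29. Neither had a saline peak. The best peaks of the first in replicates 1 and 3 had summits at 34863428 and 34863486, where replicate 2 had no peak. The replicate 2 peak, with its summit at 34864417, overlapped other peaks of replicates 1 and 3, at percentile ranks of 83.2 and 54.5. The replicates thus did not place the same bases of the first alike. For the second, whose peaks overlapped, the percentile ranks lay closer together. This closeness depends on the lengths of the lists. The ranks themselves were 5920, 22303 and 14129 for the first and 5203, 13196 and 10598 for the second. With equal numbers of kainic acid peaks, the strongest Egr1 region had a mean percentile rank of 64.4 ± 27.2 (SD, n = 3). With regions defined by summits within 200 bp in place of overlap, the strongest Egr1 region had a mean percentile rank of 52.2.

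The other 5 Egr1 regions were in kainic acid replicates 2 and 3 alone, with mean percentile ranks from 58.5 to 77.8 when the missing list counts as 100. A pair of them lay 19.5 and 18.5 kb away inside Reep2, a neighbour that encodes a membrane-shaping protein. The one at 34840477 to 34841703 also had 2 peaks of saline replicate 2, with folds of 3.91 and 4.62. Also, 3 peaks before the low-coordinate end of Egr1, at 34854195, 34858756 and 34860149, were called in replicate 2 only, at percentile ranks of 30.8, 77.9 and 96.0.

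Egr4, the member of the family without the domain that Nab proteins bind, had the most regions in all 3 kainic acid lists, 4 of its 6, and no saline peak. The strongest lay at chromosome 6, 85517954 to 85518677, 4.4 kb upstream of the start. Its fold was 3.84, 6.84 and 5.97 in replicates 1, 2 and 3, with percentile ranks of 69.6, 16.6 and 13.9 (mean 33.3 ± 31.4, SD, n = 3) on 23, 27 and 39 inferred reads. The percentile rank was far weaker in replicate 1, but the ranks themselves were 10439 of 15009, 10494 of 63197 and 4119 of 29650. The near-equal ranks of replicates 1 and 2 gave unlike percentile ranks, which are divided by the length of the list. Their folds also differed, and the cause of that was not tested. With every kainic acid list cut to its 15009 peaks of highest fold, the strongest Egr4 region had a mean percentile rank of 55.6 ± 24.4 (SD, n = 3). In Fbxo41, a neighbouring F-box gene, 2 more regions were in all 3 lists, and another 2 were in a single list each. The one at 85500351 to 85500938 had folds of 4.11, 6.68 and 4.63, and the one at 85489948 to 85490684 had 2.67, 6.60 and 4.93. The fourth covered the 3′ end of Egr4 at 85510689 to 85511214, with folds of 3.25, 3.04 and 3.92 and percentile ranks of 90.5, 92.8 and 53.6. A region at 85508460 to 85509051, 2.1 kb past that end, was in replicates 2 and 3 with folds of 7.38 and 5.40. No list had a peak over the printed stretch before the Egr4 start, and the nearest kainic acid peak ended 2375 bp from the start.

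Nab1, a corepressor of Egr proteins, had 5 regions of low to middle rank and no saline peak. Only the region at chromosome 1, 52454395 to 52455278, 571 bp past the 3′ end of the gene, was in all 3 kainic acid lists. Its folds were 4.32, 5.09 and 3.48, with percentile ranks of 51.1, 35.3 and 71.6 (mean 52.7 ± 18.2, SD, n = 3) on 17, 21 and 19 inferred reads. A region 745 bp outside the 5′ end, at 52501457 to 52502298, had folds of 3.16 and 5.13 in replicates 1 and 2 and no overlapping peak in replicate 3. Replicate 3 had its own peak at 52500831 to 52501155 with a fold of 2.41, rank 29296 of 29650. Upstream of the printed Egr sites, the first summits thus lay at 52501539, 52502012 and 52500893 in replicates 1, 2 and 3, with the start at 52500448. No base was shared by peaks of all 3 lists there. Replicate 2 also had a weak peak inside the gene, at 52499096 to 52499550 (fold 2.69, 97.7 percentile rank), and its summit lay nearer to the start. With a reach of 100 kb the strongest Nab1 region had a mean percentile rank of 16.4.

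Nab2, the Egr corepressor that is itself induced by activity, had the thinnest support. Kainic acid replicate 1 had no peak within 50 kb. The strongest region, at chromosome 10, 127674341 to 127674800, overlapped the long non-coding gene Gm16230, 7.6 kb upstream of Nab2. Its folds were 5.52 and 4.86 in kainic acid replicates 2 and 3, with percentile ranks of 28.7 and 28.1 on 32 and 35 inferred reads. The other region, at 127621710 to 127622371, lay 562 bp from Lrp1 and 38.5 kb from Nab2, with folds of 5.06 and 3.80 and a saline replicate 2 peak of fold 3.41. At the start of Nab2 itself the single overlapping peak was a saline one. Saline replicate 2 had a peak at 127666449 to 127666743 (fold 4.16, rank 1646 of 3277, 21 inferred reads) that covered the start and the 40 capital bases of the printed stretch. No kainic acid list and neither of the other saline lists had a peak overlapping it. Replicate 2 of the kainic acid group had weak peaks on both sides, at 127665720 to 127666244 (fold 2.49, 99.1 percentile rank) and at 127667011 to 127667219 (fold 3.55, 77.7 percentile rank).

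Ordered by the mean percentile rank of the strongest region, with 100 for the list that lacks the Nab2 region, the genes ran Egr2 (5.78), Egr3 (11.5), Egr1 (30.4), Egr4 (33.3), Nab2 (52.3) and Nab1 (52.7), with a median of 31.9. Over all 13729 protein-coding genes with such a region the median was 35.9. The ranges over the 3 kainic acid lists overlapped between every pair of neighbours in this order, so no neighbours differed beyond their spread. Without kainic acid replicate 1 the values were 0.881 for Egr2, 3.23 for Egr3, 15.2 for Egr4, 28.3 for Egr1, 28.4 for Nab2 and 41.1 for Nab1, which puts Egr4 ahead of Egr1. Without replicate 2 or replicate 3, Nab2 had no region to rank. The highest value of Egr2 (15.6) lay below the lowest of Egr1 (20.9), Nab2 (28.1) and Nab1 (35.3) but above the lowest of Egr3 (0.904) and Egr4 (13.9). With all lists, each of the 6 genes had more regions than the median of 1 over protein-coding genes, from 2 at Nab2 to 7 at Egr1 and Egr3. Their strongest peaks spanned the range from among the best of the genome to its middle. When genes without such a region count as weaker, the strongest region of Egr2, Egr3, Egr1 and Egr4 was ahead of that of 93.2%, 87.2%, 72% and 70.1% of all 21883 protein-coding genes. Under the same count, Nab2 and Nab1 were ahead of 55.7% and 55.4%, although both ranked behind the median of the genes with a region.

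Other protein-coding genes whose peak numbers in the 6 lists and best percentile ranks in the 3 kainic acid lists were most like each gene were found by a distance. It is the mean absolute difference in log2(number + 1) over the 6 lists plus that in log10 percentile rank over the 3, and smaller values are more alike. For Egr1 this was Mycbp2 (0.115), and for Egr2 they were Snx27 (0.142) and Pla2g2f (0.195). Sema4a (0.272) and Rnf157 (0.296) came closest to Egr3, and Gm52215 (0.153) and Zc3h12c (0.16) to Egr4. Gstm2 (0.178) was close to Nab1, and Med26 (0.12) and Uck1 (0.123) came closest to Nab2. Snx27, for instance, had 2, 11 and 3 kainic acid peaks with best percentile ranks of 13.1, 0.29 and 2.73. Med26 lacked peaks in kainic acid replicate 1 and had 9, 3 and, in saline replicate 2, 2.

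Genes that act with the Egr and Nab proteins were read in the same way. Of 10 upstream regulators, 9 had a region within 50 kb in at least 2 kainic acid lists, with a median of 4 regions, 2.75 per 100 kb and a strongest mean percentile rank of 6.43. The exception was Srf, the serum response factor itself. Creb1 (2.58), Elk3 (3.92), a partner of that factor, and its coactivator Mrtfa (4.55) had the strongest regions. Of 11 known Egr targets, 10 had a region, with a median of 4 regions and a strongest rank of 23.6. Prx (0.779), which encodes the myelin protein periaxin, Syn2 (4.60), a synaptic vesicle protein, and Cdk5r1 (14.8), the activator of the kinase Cdk5, led this list. Of 9 subunits of the NuRD complex, the chromatin partner of Nab proteins, 6 had a region, with a median of 1, the same as over all protein-coding genes. The remodelling enzymes Chd3 (2.52) and Chd4 (11.8) and the histone-binding subunit Rbbp4 (6.83) ranked best, and Mta1, Hdac2 and Rbbp7 had none. All of these counts stand against 62.7% of protein-coding genes with such a region. A region here may lie anywhere within 50 kb and may be nearer to another gene. The Chd3 region began at 69410097 and the gene ended at 69369499, and the Chd4 region began at 125167198 and the gene ended at 125130591. That of Rbbp4 lay inside the gene. The upstream regulator Elk1 and the Egr target Syn1 share their strongest region, at chromosome X, 20914698 to 20915634.

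The labelled tissue was checked on markers. All 8 neuron markers had a region within 50 kb (median of 7, or 4.37 per 100 kb), as did 8 of 12 markers of glia and microglia (median of 1.5, or 1.03 per 100 kb) and 4 of 8 liver markers (median of 0.5, or 0.359 per 100 kb). Over all protein-coding genes the share was 62.7%, close to that of the glial and microglial markers, and the median density was 0.871 per 100 kb. Gfap, Mag and Csf1r were among the markers of glia and microglia without a region, and among the liver markers Alb, Fgb, Serpina1a and Cyp3a11 had none. The liver markers Apoa1 and Ttr had 4 and 3 regions, with strongest mean percentile ranks of 2.28 and 2.35. The median strongest rank was 13.4 over the 4 liver markers with a region, 21.7 over the neuron markers and 37.1 over the 8 markers of glia and microglia. By rank, then, the lists did not set neuron markers ahead of liver markers, and by number they did. A region near a gene does not show that the gene is expressed.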

How the data were processed

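Per the submitters' processing notes, reads were handled with Trim Galore 0.6.4, Bowtie2 2.3.4.3, MACS2 (version not stated) and deepTools 3.5.0 on build mm10. Peak names in the deposited files carry a mapping quality of 30. Which cutoff and control library were used is not given in the sources used here. Each deposited list is 1 library, none pooled. The authors' values are the fold (a linear ratio of summit to local background), −log10 p, −log10 q, the score (10 times −log10 q, rounded down) and the summit offset; none is scaled between libraries.

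Here, peaks were merged at an overlap of at least 1 bp and joined to RefSeq gene spans of GRCm38.p6, the assembly behind mm10. A kainic acid list without a peak counted as 100 in a region's mean percentile rank. Summit reads k and background b were solved from fold = (k + 1)/(b + 1) and the Poisson p-value. This relation was inferred, and 111133 of 111142 peaks met it within 0.001 in −log10 p, among them every peak near the 6 genes. On 19402 simulated peaks, 99.99% of k were recovered, and merging was tested on simulated lists.

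Numbers of peaks were compared as log10(n + 1). The 6 genes and all lists were chosen with earlier results of these data known. Named genes were all 6, the 3 of best rank in each list, those without a region where 5 or fewer, and the 2 most alike; a few genes under this rule are not reported here. Alternatives changed the reach, the −log10 q, the lists used, merging and ranking. Python 3.11.15, pandas 2.3.3, scipy 1.17.1 and matplotlib 3.10.9 were used.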

Additional observations from a re-analysis of the deposited data

How the results depend on the processing

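Of 420 alternative values, 95 moved and 1 reversed. The other 324 were counted as the same, meaning on the same side or within the spread or 1.5-fold limit. That count includes some values entered as the same without a check. They are the differences in number of peaks taken between same-numbered lists, without the log, and as length covered. It also includes the Nab1 difference with −log10 q of at least 10, which was 0. The difference in number of peaks (1.18) kept its direction throughout, from 1.02 to 1.5 with 1 library left out; its test cannot pass 0.05 at this size, so this says nothing about stability. The reversal was Nab2, at -0.10 with equal numbers of kainic acid peaks. The 30 regions became 15 and 55 with a reach of 10 and 100 kb, 8 with −log10 q of at least 10, 12 with equal numbers, 10 in all 3 lists and 67 in any list; leaving out 1 library gave 10 to 30. The 26 without a saline peak became 14 and 47, 8, 10 and 9 under the same settings, and 9 to 30 with 1 library left out. Within 10 kb the strongest Egr2 and Egr3 regions ranked at 70.7 and 41.0. The median strongest rank, counted over the lists with a peak only (added after seeing the data), was 22.5 against 31.9. Shorter reach, fewer lists and fewer peaks tend to lower the count of regions by construction. The count without a saline peak can also rise, and it reached 30 when saline replicate 2 was left out. The groups share replicate numbers 1 to 3. No label ties a number to an animal or day, so the numbers were not treated as pairs. Over all regions the deviations of same-numbered libraries correlated at -0.165, -0.177 and -0.0491. This cannot decide on pairing, because saline replicates 1 and 3 hold only 7 and 2 peaks. The saline deviations come from replicate 2, and differently numbered libraries gave values of like size (0.166 and -0.166 for kainic acid replicate 1). The mean difference between same-numbered lists is 1.18 by arithmetic, so it is no separate result. Flipping signs within pairs gave an exact permutation p of 0.25, which 3 pairs cannot go below.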
